A study of Mus musculus with 31 samples.

Results

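The OAS family of antiviral genes was followed through RNA-seq of female mouse dermal fibroblasts with and without Xist on the inactive X chromosome. The 8 genes were taken by symbol (Oas1a, Oas1b, Oas1c, Oas1g, Oas2, Oas3, Oasl1 and Oasl2), and all 8 were found among 24470 symbols, each represented by the transcript with the highest total. RNA was measured in 3 groups of 2 libraries. These were cells labelled XaWT XiΔXist, called line 1 here, a further cell line of the same genotype, called line 2, and WT cells. Both lines carry a wild-type active X and lost Xist from the inactive one only after X inactivation was established. All 3 groups were hybrids of CAST/Ei and 129/Sv/Jae and received no treatment. The labels do not say whether either line is a single clone or whether the WT cells are its parent. Chromatin accessibility and BRG1 binding, measured in the other samples of the series, were not used here.

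OAS proteins are sensors of double-stranded RNA, a hallmark of virus replication. On binding it, the active members join ATP into 2′-5′-linked oligoadenylates, second messengers that set off the decay of viral and cellular RNA. Their genes are induced by interferon through the factor ISGF3, which contains STAT2 and IRF9 and binds the interferon-stimulated response element (ISRE) in promoters. In the mouse the OAS1 gene has multiplied into a tandem array, of which Oas1a and Oas1g encode active synthetases while Oas1b and Oas1c encode proteins without this activity.

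All 8 genes lie on chromosome 5 in the mm10 build, at separate places. Oasl2 (chr5:114896934-114912245) and Oasl1 (chr5:114923240-114937911) are neighbours on the plus strand. The array holds Oas2 (chr5:120730333-120749848), Oas3 (chr5:120753098-120777659), Oas1c (chr5:120800199-120812514), Oas1b (chr5:120812635-120824160), Oas1g (chr5:120876142-120887613) and Oas1a (chr5:120896257-120907525), with Oas1b on the plus strand and the other 5 on the minus strand. Oas1c and Oas1b therefore start head to head, with 120 bases between them. RefSeq annotates Oas1b of the reference strain as a transcribed pseudogene. The transcript counted here for Oas1g is also a non-coding record of RefSeq. Reads of near-identical copies such as Oas1a and Oas1g may have been split or shared between them by the authors' counting. The library protocol used a directional second-strand module, but no source used here says whether the counting kept strands apart, so antisense reads within these genes cannot be told apart from their own.

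Promoter sequences from RefSeq (GRCm38.p6, 250 bases before to 50 after the start of a gene) were matched for 6 of the 8 members, and not for Oas1b and Oas2. The stretches of 80 bases shown here carry the ISRE core, GAAANNGAAA or its reverse TTTCNNTTTC, with matches in capitals. They are shown so that the promoters of the array can be read side by side. Oasl2, without a core in its window, and Oas1c, with one, both rose in line 1, and the part of these letters in any change was not tested. The stretch between Oas1c and Oas1b (chr5:120812581-120812660) is printed in the direction of Oas1b, on the plus strand. Those of Oas1a (chr5:120907498-120907577), Oas1g (chr5:120887584-120887663) and Oas3 (chr5:120777690-120777769) are on the minus strand.
Oas1a: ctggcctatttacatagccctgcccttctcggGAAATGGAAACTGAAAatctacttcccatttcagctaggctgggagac
Oas1g: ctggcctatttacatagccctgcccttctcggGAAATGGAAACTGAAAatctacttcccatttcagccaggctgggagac
Oas1b and Oas1c: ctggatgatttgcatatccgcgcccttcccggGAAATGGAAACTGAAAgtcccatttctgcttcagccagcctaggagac
Oas3: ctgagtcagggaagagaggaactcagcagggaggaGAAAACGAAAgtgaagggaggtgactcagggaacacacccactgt

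The same 16 letters, which hold 2 overlapping ISRE cores, stood in the first 3 stretches. They lay 5 to 20 bases before the start of Oas1a, 3 to 18 before that of Oas1g and 7 to 22 before that of Oas1b, and their nearest base was 99 from the start of Oas1c on the other side. The stretches of Oas1a and Oas1g were identical at 79 of 80 positions, and that of Oas1b matched Oas1a at 61 of 80. Over 300 bases the promoters of Oas1a and Oas1g were 85.3% identical, against 41.9% to 48.5% for every other pair of members. An ISRE core was found in the promoters of 4 of 6 members and in 3.44% of 32851 promoters of the same length on either strand. None was found in the windows of Oasl1 and Oasl2, which says only that these letters are not in those windows. The whole 16-base element, searched for after it had been seen in these members, occurred in 7 of 32851 promoters, those of Oas1a, Oas1g, Oas1c, Apol9a and Apol9b, the last 2 with 2 promoters each. Apol9a and Apol9b, apolipoprotein L genes of chromosome 15, rose in line 1 (log2 fold change 5.69, SE 0.44, edgeR adjusted p = 0.00102, and 5.88, SE 0.68, adjusted p = 0.00337). Against WT, Apol9a also rose in line 2 (3.75, adjusted p = 0.0138) and Apol9b stood at 2.15 (adjusted p = 0.259, and 0.0125 with the replicate block).

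Libraries held 3808047 to 7063169 exon counts over the symbols used, with fewer in replicate 1 than in replicate 2 of all 3 groups. Xist, which checks the labels, had 0.947 and 0.273 CPM (counts scaled to the size of the library) in line 1, 0.969 and 0.282 in line 2, and 633 and 429 in WT. The 12 fibroblast markers examined were above 0 in all 6 libraries. Of these, Dcn rose in line 1 (log2 fold change 2.19, edgeR adjusted p = 0.0215) and was higher in line 1 than in line 2 (3.06, adjusted p = 0.00830). Fbn1 was lower in line 1 than in line 2 (-1.11, adjusted p = 0.0187). Against WT, Fbn1 stood at -0.79 in line 1 (adjusted p = 0.0514, and 0.000779 with the replicate block). Dcn stood at -0.87 in line 2 (adjusted p = 0.476, and 0.0354 with the block). With the block Thy1 and S100a4 were also called higher in line 1, and Col5a1 lower. The leukocyte-defining Ptprc had at most 0.136 CPM in any library, and Itgam, Cd3e and Siglech were likewise at or near 0. Summed levels of the 10 leukocyte markers were 28.4 to 29.2 CPM in line 1, 26.2 to 29.6 in line 2 and 18.2 to 18.4 in WT, with 3 to 6 markers at 0 in a library. Within that list Cd14 rose in line 1 (log2 fold change 2.18, edgeR adjusted p = 0.0132) and Lyz2 fell (-1.91, adjusted p = 0.0307). Cd68 stood at 1.98 (adjusted p = 0.0605, and 1.86, adjusted p = 0.0105 with replicate number as a block). The other 7 were too low to test. Keratinocyte markers summed to 9.69 to 10.9 CPM in line 1, 32.7 to 34.5 in line 2 and 77.8 to 101 in WT, with 2 to 4 of 8 at 0. In line 1, 3 of the 4 tested fell, where 7.55% of all genes were called lower, and Krt10 stood at 0.31 (adjusted p = 0.553). In line 2 Dsp fell (-3.85, adjusted p = 0.00985) and Krt19 stood at -1.12 (adjusted p = 0.249, and 0.00779 with the block). Trp63 at -0.66 (adjusted p = 0.689) and Krt10 at 0.32 (adjusted p = 0.745) were not called there. Endothelial markers summed to 2.43 to 3.34 CPM in line 1, 5.71 to 6.54 in line 2 and 10.4 to 12.001 in WT, with 1 to 3 of 6 at 0. Of the 3 tested, Kdr and Erg fell in both lines, while Tek stood at 1.94 in line 2 (adjusted p = 0.0767, and 0.0151 with the block). Their part in the results that follow was not tested. In bulk RNA, a larger share of expressing cells and more RNA per cell cannot be told apart.

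OAS RNA was scarce in WT fibroblasts, intermediate in line 2 and abundant in line 1. The 8 members summed to 689 and 175 CPM in line 1, 66.9 and 27.8 in line 2, and 10.2 and 5.76 in WT. In line 1 all 8 members rose by edgeR's quasi-likelihood test with Benjamini-Hochberg adjustment over 12910 genes, where 6.75% of all genes were called higher. Both line 1 libraries exceeded both WT libraries for all 8, as they did for 25.5% of all genes. The median log2 fold change of the 8 was 6.07, against 0.0051 over all genes. It was 5.03 without line 1 replicate 1 and 5.54 to 6.71 without any other 1 library. The filter asked for about 1.92 CPM in 2 libraries. All 8 members met it in line 1, 3 in line 2 (Oas1b, Oas1c and Oasl2) and 0 in WT, so 5 entered the test through line 1 alone and their count is a description. With replicate number as a block 8 were called as well, where 16.3% of all genes were called higher. Once a WT library was dropped, fewer members were called, and fewer of all genes were too. Dropping WT replicate 1 left log2 fold changes from 2.68 (Oas1c) to 10.5 (Oas3). With WT replicate 2 dropped instead, they ran from 2.66 (Oasl1) to 7.98 (Oas2).

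**Figure D1:**
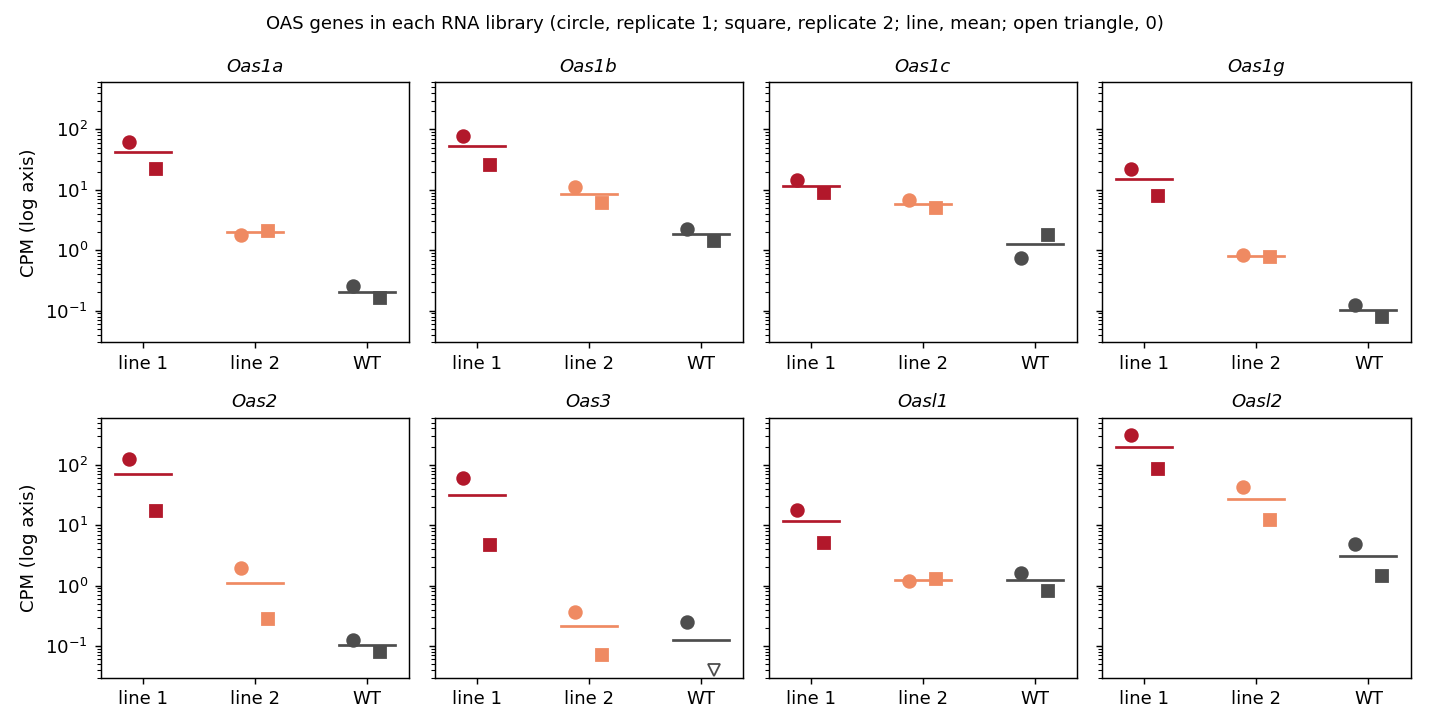
CPM of the 8 OAS genes (log axis) in the 2 libraries each of line 1, line 2 and WT, with circles for replicate 1, squares for replicate 2, a line for the mean and an open triangle for a value of 0. Line 1 lies above WT without overlap in every panel, and Oas3 and Oasl1 are the panels where line 2 and WT overlap.

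RNA of Oas1a and Oas1g, genes of catalytically active synthetases, was close to absent in WT, that of Oas1g being counted on a non-coding transcript. Oas1a had 62.7 and 22.2 CPM in line 1, 1.82 and 2.11 in line 2, and 0.253 and 0.160 in WT. The WT values rested on 2 counts, so the difference is given as a ratio of counts, whose 95% interval covers counting error only: log2 7.51 (5.65 to 10.57) in line 1 and 3.39 (1.37 to 6.52) in line 2. Line 1 was called (edgeR adjusted p = 0.00286) and line 2 was not (adjusted p = 0.256, and 0.0594 with the block), although both line 2 libraries lay above both WT libraries. Oas1g had 22.0 and 7.85 CPM in line 1, 0.848 and 0.775 in line 2, and 0.126 and 0.0800 in WT. On 1 count in WT, its log2 ratio was 7.01 (4.51 to 12.32) in line 1 and 3.03 (0.18 to 8.49) in line 2, with adjusted p = 0.00616 and 0.535 by edgeR. Per kilobase of transcript Oas1a was the higher of the pair in every library.

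The head-to-head pair Oas1b and Oas1c, which lack synthetase activity, held the highest levels of the OAS1 genes in WT and line 2. Oas1b is the flavivirus resistance gene of the mouse, truncated in many laboratory strains. It had 79.1 and 25.5 CPM in line 1, 11.1 and 6.13 in line 2, and 2.27 and 1.44 in WT. Means were 52.3 ± 37.9, 8.64 ± 3.54 and 1.86 ± 0.589 CPM in that order (SD, n = 2), and every library of line 1 lay above line 2 and every library of line 2 above WT. Line 1 exceeded WT by a log2 fold change of 4.83 (SE 0.73, edgeR adjusted p = 0.00876). Line 2 stood at 2.23 (SE 0.77, adjusted p = 0.248), where the block gave a call (2.21, SE 0.37, adjusted p = 0.0132). Oas1c had 14.5 and 8.73 CPM in line 1, 6.90 and 4.93 in line 2, and 0.758 and 1.76 in WT. Oas1c rose by 3.07 in line 1 (SE 0.49, adjusted p = 0.0107), which is within the error of Oasl1. In line 2 it stood at 2.12 (SE 0.51, adjusted p = 0.0945, and 2.05, SE 0.43, adjusted p = 0.0276 with the block). Within replicate numbers Oas1c exceeded WT by log2 4.25 and 2.31 in line 1 and by 3.19 and 1.49 in line 2, with 3 and 11 counts in the WT libraries.

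RNA of the larger synthetases was nearly absent from WT and higher in line 1. Oas2 encodes a protein with a doubled synthetase domain, and Oas3, with a tripled one, makes most of the active oligoadenylates in human cells. Oas2 had 124 and 17.1 CPM in line 1, 1.94 and 0.282 in line 2, and 0.126 and 0.0800 in WT. With 1 count in WT the log2 ratio was 9.08 (6.60 to 14.39) in line 1 and 3.19 (0.37 to 8.63) in line 2, with adjusted p = 0.0187 and 0.853 by edgeR. Oas3 had 59.6 and 4.78 CPM in line 1, 0.363 and 0.0705 in line 2, and 0.253 and 0 in WT. Per kilobase of transcript Oas3 was the lowest member in line 1 replicate 2, at 1.01 CPM per kb. Its log2 ratio to WT was 7.89 (5.40 to 13.20) in line 1 (edgeR adjusted p = 0.0393), also on 1 count in WT, an interval that overlaps that of Oas1a, and no ratio is given for line 2, where both groups held no more than 3 counts. These were also the members that differed most between the line 1 libraries, 7.30-fold for Oas2 and 12.5-fold for Oas3, against 1.66-fold for Oas1c and 2.81- to 3.68-fold for the other 5. Without line 1 replicate 1 the fitted log2 fold change was 6.29 for Oas2, 5.31 for Oas3 and 6.67 for Oas1a. Oas3 was not called in line 1 with line 1 and WT alone (adjusted p = 0.0649) or without any 1 WT or line 2 library (0.0618 to 0.201).

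Of the OAS-like genes, Oasl2 lay above WT in both line 2 libraries and Oasl1 lay inside the WT range there. The difference between these genes was not tested. Oasl2 encodes a synthetase with ubiquitin-like repeats at its end and gave the most OAS RNA in both lines. It had 308 and 83.8 CPM in line 1, 42.6 and 12.3 in line 2, and 4.80 and 1.44 in WT. Its log2 fold change in line 1 was 6.09 (SE 1.05, edgeR adjusted p = 0.0140). That of line 2 was 3.21 (SE 1.08, adjusted p = 0.230). Within replicate numbers the difference from WT was nearly constant, at log2 6.01 and 5.86 in line 1 and 3.15 and 3.09 in line 2. With the block it was called in line 2 (3.12, SE 0.17, adjusted p = 0.000349). Oasl1, which lacks synthetase activity and in mice holds back translation of Irf7 mRNA, had 18.0 and 5.12 CPM in line 1, 1.21 and 1.27 in line 2, and 1.64 and 0.800 in WT. It rose in line 1 (3.19, SE 0.75, adjusted p = 0.0390) and stood at 0.045 (SE 0.92, adjusted p = 0.994) in line 2, with line 2 inside the WT range. The line 1 call of Oasl1 was lost with line 1 and WT alone (adjusted p = 0.0705) and without any 1 WT or line 2 library (0.0698 to 0.214).

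**Figure D2:**
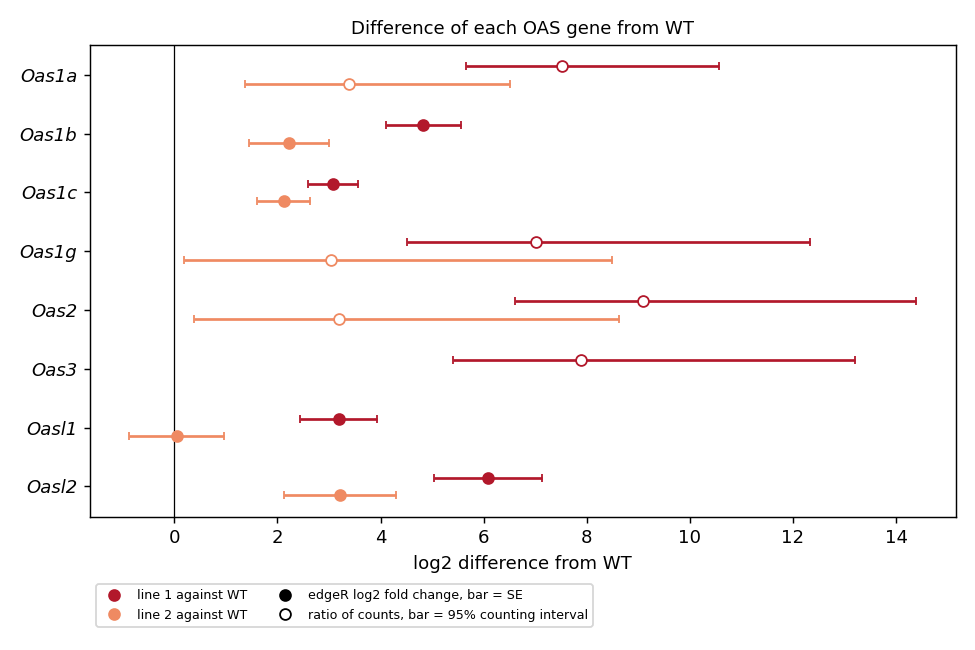
Difference of line 1 (dark red) and line 2 (orange) from WT on a log2 scale for each OAS gene. Filled points are edgeR log2 fold changes with SE, and open points are ratios of counts with 95% counting intervals for the members with at most 3 counts in WT, Oas3 in line 2 being left out. The line 1 point lies to the right of the line 2 point for every gene that has both.

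In line 2 the number of calls changed with the replicate block. By edgeR 0 of 8 members were called, where 1.73% of all genes were called higher. At an unadjusted p under 0.05 there were 4, a rule for which no share over all genes was computed. DESeq2 called 2 members, and 581 genes in either direction over all genes, against 462 by edgeR. The members were chosen with earlier results of these data known, so the counts in this paragraph are a description. Leaving out either line 1 library gave more calls, among the members and among all genes. With replicate number as a block 3 were called (Oas1b, Oas1c and Oasl2), where 5.87% of all genes were called higher. The median log2 fold change of the 8 was 2.12, against 0.0051 over all genes. Line 2 lay above WT within replicate number for 7 of 8 members in replicate 1, Oasl1 being the exception, and for 8 of 8 in replicate 2. Both line 2 libraries exceeded both WT libraries for 6 of 8, as they did for 24.9% of all genes.

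Line 1 and line 2 differed in the size of their OAS RNA. The filter was met through line 1 alone by 5 members (Oas1a, Oas1g, Oas2, Oas3 and Oasl1), so the counts that follow are a description. Of the 8 members 6 were higher in line 1 than in line 2 by edgeR, where 5.76% of all genes were called higher, and 7 with the block, where 13.8% were. Both line 1 libraries exceeded both line 2 libraries for 8 of 8, as they did for 24.4% of all genes, and the median log2 difference was 3.57, against 0.0078 over all genes. It was 2.57 without line 1 replicate 1. For Oas2 the log2 difference was 6.19 (SE 1.25, adjusted p = 0.0261), for Oas1a 4.34 (SE 0.59, adjusted p = 0.00641), for Oas1g 4.00 (SE 0.64, adjusted p = 0.0113), for Oasl1 3.14 (SE 0.73, adjusted p = 0.0409) and for Oas1b 2.61 (SE 0.60, adjusted p = 0.0384). Oas3, on 2 counts in line 2, had a log2 ratio of 7.03 (5.16 to 10.08, edgeR adjusted p = 0.0460). Oasl2 stood at 2.87 (SE 0.81, adjusted p = 0.0756, and 2.82, SE 0.096, adjusted p = 1.87e-05 with the block). Oas1c was not called, at 0.96 (SE 0.40, adjusted p = 0.214, and 0.0555 with the block). Fewer members were called when any 1 line 2 or WT library was dropped, and fewer of all genes were too. The median log2 difference of the 8 then lay between 3.55 and 4.03.

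The make-up of the family also differed between groups. Per kilobase of transcript, Oasl2 led in line 1 with 62.5 ± 50.6 CPM per kb (SD, n = 2), followed by Oas1b (28.5 ± 20.6), Oas1a (22.5 ± 15.2), Oas2 (18.3 ± 19.7), Oas1g (7.22 ± 4.85), Oas3 (6.82 ± 8.22), Oasl1 (5.44 ± 4.28) and Oas1c (5.08 ± 1.77). Every neighbour in that order overlapped the next over the 2 libraries, although Oasl2, Oas1b, Oas1a and Oas2 kept their order in both. In line 2 the order was Oasl2 (8.76 ± 6.85 CPM per kb), Oas1b (4.71 ± 1.93), Oas1c (2.59 ± 0.610), Oas1a (1.04 ± 0.112), Oasl1 (0.584 ± 0.0192), Oas1g (0.393 ± 0.0248), Oas2 (0.287 ± 0.303) and Oas3 (0.0460 ± 0.0439). Oasl2 overlapped Oas1b there, Oas1g overlapped Oas2, and Oas2 overlapped Oas3. In WT, Oas1b (1.01 ± 0.321 CPM per kb) and Oasl2 (0.995 ± 0.758) led, followed by Oasl1 (0.575 ± 0.280) and Oas1c (0.551 ± 0.310), and each of these 4 overlapped the next one among them. Oas1a (0.109 ± 0.0347), Oas1g (0.0499 ± 0.0158), Oas3 (0.0268 ± 0.0379) and Oas2 (0.0267 ± 0.0085) were lower, Oas1c lying clear of Oas1a and Oas1a clear of Oas1g, while Oas1g, Oas3 and Oas2 overlapped.

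As a share of summed CPM per kb, Oas1a made up 13.6% and 17.4% in line 1, 3.82% and 9.67% in line 2, and 3.22% and 3.34% in WT. Oas2 made up 13.2% and 6.51% in line 1, 1.99% and 0.630% in line 2, and 0.787% and 0.817% in WT. Both were thus a larger part of the family in line 1 than in any other library. Oas1c took 2.58% and 5.63% in line 1, 11.98% and 18.6% in line 2, and 7.98% and 30.4% in WT. Oasl1 took 3.46% and 3.55% in line 1, 2.26% and 5.16% in line 2, and 18.6% and 14.9% in WT. The WT shares rest on 36 to 40.5 counts over all 8 genes, against 197.5 to 276 in line 2 and 1282.5 to 2547.5 in line 1.

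**Figure D3:**
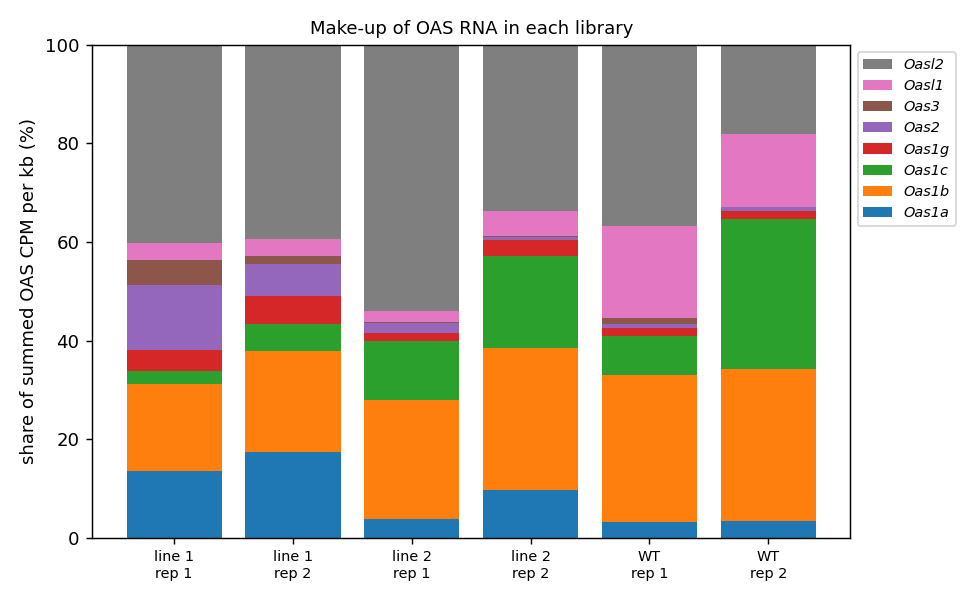
Share of each OAS gene in the summed CPM per kb of the 8 genes (percent), with 1 bar per library, line 1 at the left, then line 2 and WT. Oas1a and Oas2 take larger shares in line 1 than in the other libraries, and Oasl1 takes its largest shares in WT, 18.6% and 14.9%.

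The 4 other OAS1 copies in the table, Oas1d, Oas1e, Oas1f and Oas1h, were barely detected. They summed to 4 and 2 counts in line 1, 0.5 and 1 in line 2, and 0 in both WT libraries, and none passed the filter. Oas1f and Oas1h gave most of the counts in line 1, with 1.5 and 0.5 for Oas1f and 2 and 1.5 for Oas1h.

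The genes around the members were also examined. Of 29 neighbours that start within 250 kb of a member, 20 were tested. In line 1, 0 were higher by edgeR, where 6.75% of all genes were, and 1 was lower, where 7.55% were. With the block 2 were higher (Unc119b and Iqcd), where 16.3% of all genes were, and 1 was lower. With 20 genes tested, these counts are a description. At an unadjusted p under 0.05 there were 2. The call was 2610524H06Rik, 75.0 kb from Oasl2, which fell (-2.72, adjusted p = 0.00644). The median log2 fold change of the tested neighbours was 0.0063 in line 1 and 0.077 in line 2. In line 2, 0 were called by edgeR and 0 with the block, where 1.73% and 5.87% of all genes were called higher. At an unadjusted p under 0.05 there was 1 in line 2. The 6 with the highest levels were Mlec, Ptpn11, Ankrd13a, Git2, Plbd2 and Ddx54. Their log2 fold changes in line 1 were -0.10, -0.11, -0.10, 0.0039, 0.22 and -0.04 in that order. The phosphatase gene Ptpn11, 223 kb beyond the array, had 249 and 241 CPM in line 1, 311 and 263 in line 2, and 282 and 246 in WT. The largest log2 fold change of a tested neighbour in line 1 was 1.14 for Iqcd (adjusted p = 0.313, and 0.0277 with the block). Members were chosen with earlier results known and neighbours by position, so the sizes of their changes were not compared.

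**Figure D4:**
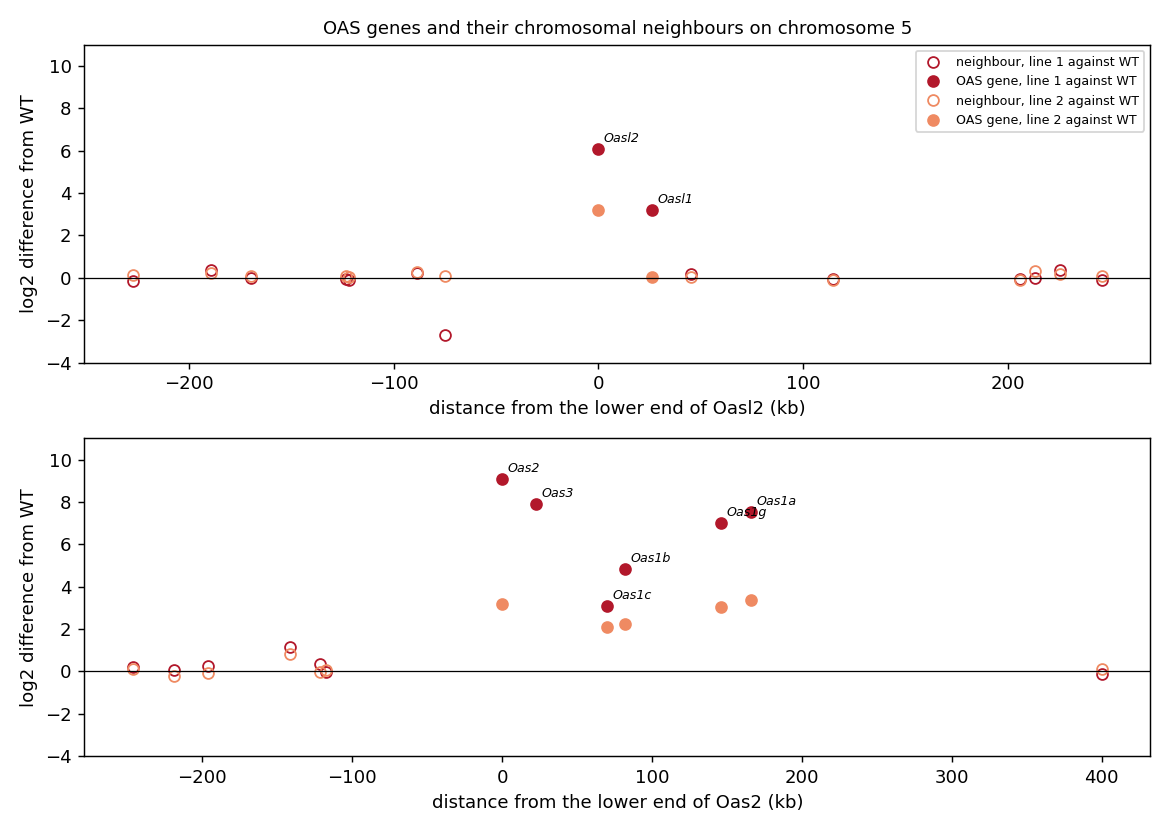
Log2 difference from WT of OAS genes (filled) and of tested genes within 250 kb (open) against distance in kb from the lower end of Oasl2 or Oas2, for the Oasl2 and Oasl1 pair in the upper panel and the array in the lower panel, line 1 in dark red and line 2 in orange. Neighbours lie near 0 except 2610524H06Rik at -2.72 in line 1 and Iqcd at 1.14 in line 1 and 0.81 in line 2. OAS genes with at most 3 counts in WT are drawn at their ratio of counts.

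The 2 genes examined that degrade the oligoadenylates were not called by edgeR in either line, and 0 of 2 had an unadjusted p under 0.05. Pde12, a phosphodiesterase that degrades them, stood at 0.34 in line 1 (adjusted p = 0.344, and 0.0346 with the block) and at -0.03 in line 2 (adjusted p = 0.988). Akap7, which carries a phosphodiesterase domain of the same activity, stood at 0.13 in line 1 (adjusted p = 0.820) and at 0.33 in line 2 (adjusted p = 0.696). Among cGAS (Mb21d1 in the table), which shares the OAS fold and senses DNA, and its partner STING (Tmem173), 0 of 2 were called by edgeR in either line, with 1 at an unadjusted p under 0.05 in each. With the block Mb21d1 was called in line 1 (adjusted p = 0.0391), at 84.1 and 77.4 CPM in line 1, 42.3 and 59.7 in line 2, and 53.2 and 58.8 in WT.

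Other double-stranded RNA sensors rose in part. Of 8 such genes 5 were higher in line 1 and 0 lower, with a median log2 fold change of 2.62, where 6.75% of all genes were called higher. These genes too were listed with earlier results of these data known, so the counts are a description. With the block 7 were higher, where 16.3% of all genes were. In this list 0 were called in line 2 by edgeR (median 0.71), where 1.73% of all genes were called higher. At an unadjusted p under 0.05 there was 1. With the block 2 were called higher in line 2, where 5.87% of all genes were. Ddx58, which encodes RIG-I, rose by 2.65 in line 1 (adjusted p = 0.0196) and Eif2ak2, the kinase PKR, by 1.23 (adjusted p = 0.0327). The editing enzyme Adar stood at 1.14 (adjusted p = 0.0651, and 0.0149 with the block), and the adaptor Mavs at 0.17 (adjusted p = 0.583).

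Irf9 and Stat2, which encode subunits of ISGF3, rose in line 1. Irf9 had 192 and 109 CPM in line 1, 51.5 and 33.4 in line 2, and 36.8 and 29.1 in WT, and rose by 2.19 in line 1 (SE 0.34, adjusted p = 0.00999). Stat2 rose by 2.12 (adjusted p = 0.0471) and Irf7, the interferon-induced regulator, by 4.10 (adjusted p = 0.0201). In line 2 they stood at 0.36 for Irf9, 0.25 for Stat2 and 1.18 for Irf7, none called. The receptor chain Ifnar1 stood at -0.11 (adjusted p = 0.612) and the kinase Jak1 at 0.047 (adjusted p = 0.857) in line 1. Interferon transcripts themselves were near the limit of detection. None of 9 ligand genes passed the filter. Ifnb1 had 1 count in each line 1 library and 0 in line 2 and WT, and Ifna4 had 4 and 0.5 counts in line 1 and 0 elsewhere. The other 7 were at 0 in both line 1 libraries. In WT replicate 1, 8 of 9 were at 0, and another ligand gene gave the summed 0.126 CPM.

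Other interferon-induced effectors were mostly higher in line 1. Of 16, 14 were called higher in line 1 (median log2 fold change 4.83), where 6.75% of all genes were. The list was chosen with earlier results of these data known, so its counts are a description. With the block 16 were called higher, where 16.3% of all genes were. Both line 2 libraries lay above both WT libraries for 12 of 16, as they did for 24.9% of all genes. By edgeR 0 were called in line 2 (median 1.45), where 1.73% of all genes were called higher. At an unadjusted p under 0.05 there were 6. With the block 7 were called higher in line 2, where 5.87% of all genes were. Parp14, an ADP-ribosyltransferase, rose by 3.81 in line 1 (adjusted p = 0.00646), Xaf1 by 3.50 (adjusted p = 0.0132) and Samd9l, an antiviral translation inhibitor, by 1.84 (adjusted p = 0.00743). Ifit2, a binder of foreign RNA, stood at 0.85 in line 1 (adjusted p = 0.0744, and 0.0358 with the block) and at -0.34 in line 2 (adjusted p = 0.677). Median levels of the list were 7.57 and 5.58 log2 CPM in line 1, 4.77 and 3.69 in line 2, and 3.06 and 2.39 in WT. For the OAS genes they were 5.94 and 3.66 in line 1, 1.21 and 1.01 in line 2, and -0.26 and -0.35 in WT, so the first library was the higher in every group for both lists.

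**Figure D5:**
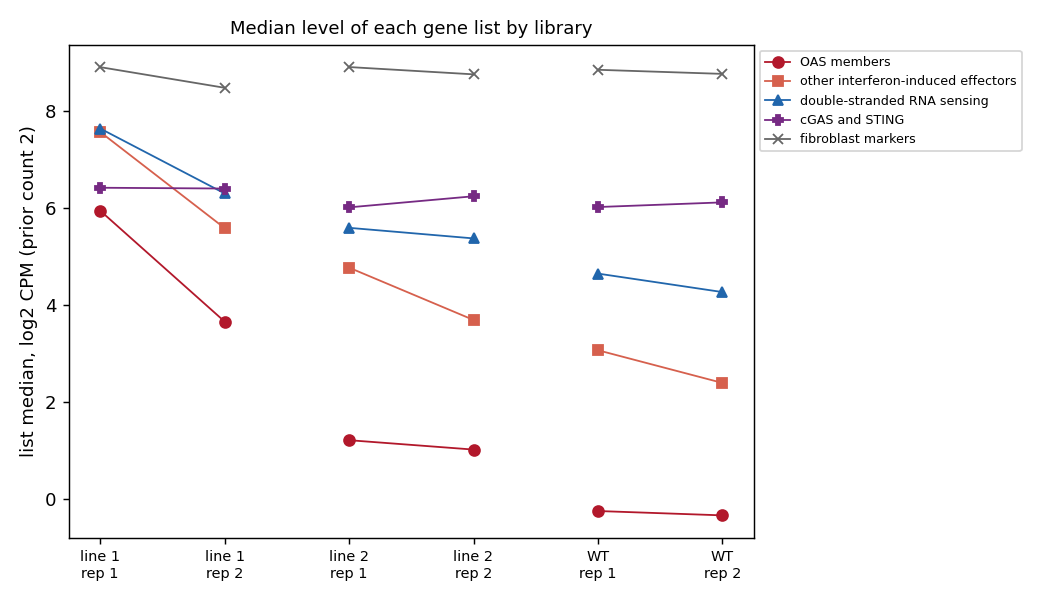
Median log2 CPM of 5 gene lists (prior count 2) in the 6 libraries, line 1 at the left, then line 2 and WT, with the 2 libraries of a group joined by a line. The OAS genes span from 5.94 in line 1 replicate 1 to -0.35 in WT replicate 2, while the median of the fibroblast markers lies between 8.48 and 8.91.

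Across the 6 libraries the genes most like the mean log2 CPM of the 8 members, of 12902 others, were Vav3, Ifi203, Parp9, Ifit1bl2, Rab2a, Parp14, Ifi44 and Adssl1, with Pearson's r between 0.995 and 0.998. These libraries fall into 3 groups, so the likeness rests largely on group differences. Ifi203, Parp9, Ifit1bl2, Parp14 and Ifi44 are known as interferon-induced genes. Rab2a, a small GTPase of vesicle traffic, tracked the members over a narrow range, at 128 and 122 CPM in line 1, 113 and 112 in line 2, and 109 and 106 in WT, and was not called (0.21, adjusted p = 0.249 in line 1).

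Over all tested genes with a promoter in the table, members left out, 15.7% of 356 genes with an ISRE core were called higher in line 1, and 6.36% of 9457 without one. In line 2 the shares were 2.81% and 1.52%. These shares are a description without a test.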

How the data were processed

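Total RNA depleted of ribosomal RNA was sequenced as 50 bp pairs from 2 biological replicates per group, per the labels' protocols. The authors deposited exon values per RefSeq transcript in the unit of expected counts, made with HOMER on mm10 without normalization, per the file headers, in steps of 0.5. The submitters' processing notes also name Trim Galore 0.4.1, TopHat2, SAMtools and bedtools 2.25.0. The design assumed counts and the unit proved to be expected counts, so values were rounded, 0.5 upwards. Of 28972 transcript rows, 24470 symbols were kept.

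A quasi-likelihood model of edgeR 4.0.16 (under R 4.3.3) was fitted to the 6 libraries jointly, after filterByExpr and TMM scaling, to 12910 genes, with 1 coefficient for each group and 3 residual degrees of freedom. An adjusted p under 0.05 was a call, and the SE is the fold change over the root of F. Counts at an unadjusted p under 0.05 have no share over all genes beside them and are a description. The common biological coefficient of variation was 0.17. CPM were computed on the scaled library sizes. DESeq2 1.42.0 was an alternative. The fit was tested on simulated data.

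The replicate 1 minus replicate 2 difference of a gene correlated between every pair of groups (Pearson's r over genes 0.53, 0.54 and 0.59). The labels' numbers were therefore taken to pair the libraries in the fit with the block. The main fit left this pairing out. For a gene and comparison given in the text, the blocked value is printed where it changes the call. A group with at most 3 counts is given as a ratio of counts with an exact 95% interval.

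The members and gene lists were chosen with earlier results of these data known. Named were all 8 members, per list the 4 tested genes with the highest levels plus further genes of the pathway, 6 neighbours, and the 8 genes most like the members. Apol9a, Apol9b, Iqcd, Unc119b, 2610524H06Rik, Ifnb1, Ifna4 and the marker genes were named after their values were seen. Some genes that this rule names, and the lists that rest on them, are not reported here.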

Additional observations from a re-analysis of the deposited data

Results flagged for a closer look

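For 6 OAS genes the effect in line 1 differed from that in line 2 by the test of the difference itself, edgeR's contrast of line 1 minus line 2. The log2 differences were 6.73 for Oas3, 6.19 for Oas2, 4.34 for Oas1a, 4.00 for Oas1g, 3.14 for Oasl1 and 2.61 for Oas1b, each with both line 1 libraries above both line 2 libraries (adjusted p between 0.00641 and 0.0460). The fitted value of Oas3 rests on 2 counts in line 2. Oas1a, Oas1g, Oas2, Oas3 and Oasl1 passed the filter on low counts through line 1 alone, the group in which they are high, so only the test of Oas1b was free of that choice. Without either line 2 library fewer of the 6 were called, and fewer of all genes were too. As any 1 library was left out, the log2 difference ranged from 4.04 to 7.66 for Oas3 and from 4.17 to 7.83 for Oas2. It ranged from 3.42 to 4.92 for Oas1a and from 3.11 to 4.59 for Oas1g. For Oasl1 the range was 2.03 to 3.83 and for Oas1b 1.60 to 3.24.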

How the results depend on the processing

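Each line 1 member kept its direction under every alternative run. OAS calls in line 1 against WT ranged from 2 to 8 when 1 library was left out, those in line 2 from 0 to 2 and those of line 1 minus line 2 from 0 to 7. Calls over all genes ranged from 718 to 2365, 23 to 783 and 601 to 1993 in the same order, against 1846, 462 and 1630 with all libraries. With the replicate block they were 4183, 1565 and 3506, and OAS calls in line 2 rose to 3. Without the filter, line 2 gave 4 OAS calls and 948 over all genes. With line 2 and WT alone, where 3 members passed the filter, it gave 1 and 792, and with the 2 lines alone the lines differed at 3 OAS genes. DESeq2 gave 2 OAS calls in line 2 and 581 over all genes. Oasl1 in line 2 changed sign, ranging from -0.50 to 0.62 as 1 library was left out, the lowest being without WT replicate 2, and stood at -0.0014 without line 2 replicate 2 and -0.0024 by DESeq2. DESeq2's size factors, summed transcripts and unrounded counts (chosen after seeing the data) left each number of OAS calls as it was. Unrounded counts moved the fitted log2 fold change of Oas2 from 8.31 to 9.17 in line 1 and from 2.12 to 2.97 in line 2. For Oas1g it moved from 6.06 to 6.91 and from 2.06 to 2.77. Both genes had 0.5 counts in each WT library, which rounding took to 1. The cause of the changes in calls was not tested. The depth leaves Oas1a, Oas1g, Oas2 and Oas3 at 1 or 2 counts in WT.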
